A study of Mus musculus with 6 samples.

Results

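The genes described here encode the machinery that carries nuclear-encoded proteins into mitochondria. They were chosen by name: every row of the table whose symbol starts with Tomm or Timm and a digit, plus Timmdc1, Pam16, Dnajc19, Grpel1, Samm50, Mtx1, Mtx2, Chchd4 and Gfer, without rows marked as pseudogenes by -ps. That gave 35 of 55414 genes, and 33 of them had a mean of at least 1 TPM (transcript abundance per library, corrected for the length of each transcript) over the 6 libraries, as did 14916 genes in all. RNA was sequenced from mouse hippocampus in 3 libraries from mice treated with CerM and 3 from mice treated with vehicle. The labels spell out neither CerM nor its dose or duration, and give no strain, age or genotype. The series title concerns ceramides, gut bacteria, depression after corticosterone and mitochondrial function. The titles call the libraries biological replicates without saying that each came from a separate mouse, and the p-values therefore speak of the spread among these 6 libraries.

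Most mitochondrial proteins are made in the cytosol and enter through the TOM complex, whose receptors and pore lie in the outer membrane. From there the SAM complex places barrel-shaped proteins in the outer membrane, and a disulfide relay folds small cysteine-rich proteins in the intermembrane space. Small TIM chaperones escort hydrophobic carriers to the TIM22 translocase of the inner membrane, while the TIM23 translocase and its motor pull proteins with a presequence into the matrix. Neurons depend on this supply for respiration at distant synapses.

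Some libraries stood apart in markers of tissue other than hippocampus. The summed level of 6 choroid plexus markers was 9319, 306 and 10961 TPM in CerM replicates 1 to 3, against 253, 263 and 15737 TPM in vehicle replicates 1 to 3. The 6 fat markers summed to 696 TPM in CerM replicate 3 and to 0.53 to 1.78 TPM in the other 5 libraries. Vehicle replicate 1 held 282 TPM of 8 neocortex markers, against 133 to 137 TPM elsewhere, and 194 TPM of 7 hippocampal markers, against 288 to 337 TPM. Among the neocortex markers Lamp5 alone stood at 150 TPM there, against 41.0 to 50.7 TPM elsewhere. All neocortex markers but Ctxn3 were highest in that library, and all hippocampal markers but Wfs1 were lowest in it. All of the 7 hippocampal markers were detected. The 6 oligodendrocyte markers summed to 3807 TPM in vehicle replicate 1 and to 5834 to 6953 TPM in the other 5 libraries. The 6 neuron markers summed to 3375, 3426 and 3418 TPM in CerM, against 4355, 3670 and 3473 TPM in vehicle, without overlap. Averaged as deviations from each gene's mean on a log2 scale, the neuron markers did overlap: −0.10, 0.07 and −0.11 in CerM, against 0.15, 0.02 and −0.03 in vehicle. In such bulk tissue, fewer cells of a type and less RNA per cell cannot be told apart.

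As a group the import genes lay slightly lower in CerM hippocampus than in vehicle hippocampus. Their TPM summed to 2217, 2278 and 2135 in CerM replicates 1 to 3, against 2428, 2414 and 2321 in vehicle replicates 1 to 3. These sums did not overlap, and corresponded to 0.215% to 0.229% of library TPM in CerM and 0.233% to 0.244% in vehicle. Such sums weigh abundant genes most. With each tested gene counted equally, the mean deviation from the gene's average on a log2 scale did overlap. It was −0.04, 0.01 and −0.08 in CerM, against 0.10, 0.06 and −0.05 in vehicle. Of the 33 tested genes, 25 had a log2 fold change below 0, where 41.2% of all tested genes did. The median was −0.08, against 0.03 over all tested genes. All fold changes divide CerM by vehicle after adding 1 to TPM, on a log2 scale, so those of genes with little TPM come out too small.

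No import gene passed limma's test at an adjusted p below 0.05, as 0% of all 14916 tested genes did, and adjusted p-values of the import genes ran from 0.989 to 0.999. At an unadjusted p below 0.05 there were 3 import genes, Tomm5, Timm10 and Timm8b, all lower in CerM. Of all tested genes 2.7% reached that level, and 1.62% of all tested genes did so on the lower side. The count of import genes at that level was 1 without vehicle replicate 2 and 7 without vehicle replicate 3, all lower in CerM. Of all 14916 tested genes, 293 and 966 reached that level in those fits. Without vehicle replicate 1, or with the replicate number as a block, 2 import genes were lower and 1 higher at that level. The choroid plexus or neocortex marker score as a covariate gave the same counts. Of all tested genes 263, 496, 384 and 273 reached that level in these fits, in the order named. The libraries of both treatments did not overlap in 4 import genes, Tomm5, Timm10, Timm8b and Timm9, again all lower in CerM. Over all tested genes 7.3% did not overlap, 4.04% lower and 3.26% higher in CerM. That split depended on scaling: quantile normalization and median-ratio scaling each gave 3 import genes lower and 1 higher without overlap, where 4.37% and 4.90% of all tested genes were lower and 2.80% and 4.05% higher. TPM rescaled without genes named mt- gave 2 lower and 1 higher, where 3.39% of all tested genes were lower and 5.09% higher. With 1 library fewer the groups part more easily: 9, 12 and 11 import genes did not overlap when replicate 1 or 2 of CerM or replicate 3 of vehicle was left out, where 18.8%, 18.8% and 23.8% of all tested genes did not.

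The spread sets what could have been seen. The half-width of the 95% confidence interval on the log2 scale had a median of 0.28 over the import genes. Intervals of 29 of the 33 excluded a 1.5-fold difference of TPM + 1 in either direction, and those of 32 a 2-fold difference, the exception being Pam16.

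**Figure D1:**
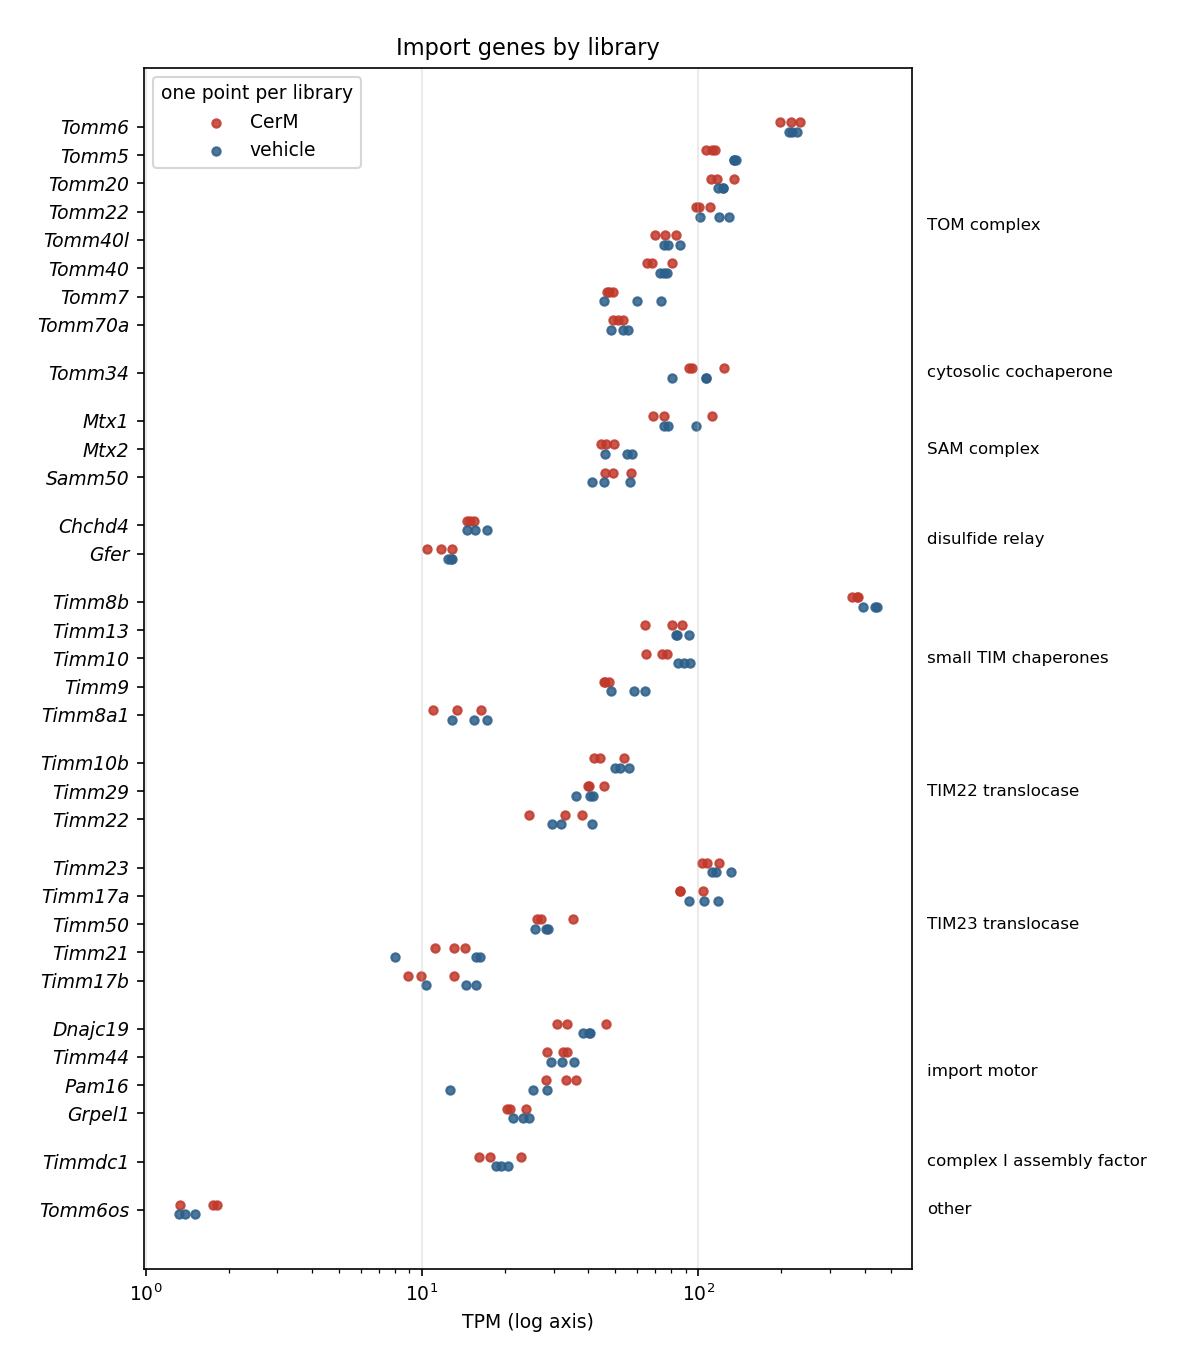
TPM on a log axis for the 33 tested import genes, ordered by role and then by mean level, with a point for each of 3 CerM and 3 vehicle libraries. Timm8b stands highest, between 359 and 444 TPM, and Tomm6os lowest, between 1.32 and 1.82 TPM.

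Levels spanned a wide range, and some of the smallest subunits were among the most abundant. Averaged over the 6 libraries, Timm8b had 398 TPM, Tomm6 218, Tomm5 123, Tomm20 121, Timm23 115 and Tomm22 109.9. At the low end of the protein-coding members stood Timm17b at 12.1, Gfer at 12.2 and Timm21 at 13.1 TPM. Tomm20l, a paralog of the receptor gene Tomm20, was listed at 0 in every library. Timm8a2, a paralog of Timm8a1, was listed at 0 in all 3 CerM libraries and reached 0.09 TPM in vehicle. Neither was tested.

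All 8 tested genes of the TOM complex had a log2 fold change below 0, with a median of −0.07. Of all tested genes 41.2% lay below 0, and of those with a coding sequence under 150 codons 70.7% did. Tomm5, Tomm6, Tomm7, Tomm20 and Tomm22 belong to that length class. Tomm5, a small subunit that helps hold the pore together, had the smallest p of any import gene. It stood at 107, 115 and 112 TPM in CerM replicates 1 to 3, against 137, 135 and 134 TPM in vehicle replicates 1 to 3. The lowest vehicle library lay well above the highest CerM library, and the 3 vehicle values hardly differed. The means were 111 ± 4.09 TPM in CerM libraries and 136 ± 1.34 in vehicle libraries (SD, n = 3 each), a log2 fold change of −0.29 ± 0.08 (SE). The unadjusted p was 0.00679 and limma's adjusted p 0.989.

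Tomm7, another small subunit, which in human cells also steadies the kinase PINK1 at the TOM complex, had a fold change of like size with a wider spread. It stood at 49.4, 46.7 and 47.7 TPM in CerM, against 73.6, 60.1 and 45.6 TPM in vehicle. The CerM libraries were close together, and vehicle replicate 3 lay below all of them, so the groups overlapped. Its log2 fold change was −0.29 ± 0.17 (SE), with an unadjusted limma p of 0.125.

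Tomm6, the most abundant TOM gene and a small stabiliser of the pore, stood at 234, 217 and 198 TPM in CerM, against 214, 219 and 227 TPM in vehicle. Its groups overlapped (−0.03 ± 0.09), and most of its exons are shared with the read-through gene Gm21981, at 3.18 to 5 TPM. The pore gene Tomm40 had −0.08 ± 0.10 and its paralog Tomm40l −0.06 ± 0.10. Tomm40l shares exon bases with Nr1i3 on the other strand, which is at 0.31 TPM or less. Among receptors, Tomm22 had −0.17 ± 0.11, Tomm20 −0.01 ± 0.10 and Tomm70a, which receives carriers from chaperones, −0.03 ± 0.09. Quantile normalization put Tomm6 and Tomm20 above 0 (0.02 and 0.03), which left 6 of the 8 TOM genes below it. TPM rescaled without genes named mt- left 7 below 0, and without CerM replicate 3 only 5 were. Tomm34, a cytosolic cochaperone of Hsp70 and Hsp90, had 92.7, 124 and 94.95 TPM in CerM, against 80.5, 107 and 107 TPM in vehicle, with overlapping groups (0.08 ± 0.16). Tomm6os, a transcript antisense to Tomm6, had 1.33, 1.82 and 1.76 TPM in CerM, against 1.39, 1.51 and 1.32 TPM in vehicle, and its shared exon bases leave the source of its reads uncertain if strand was not used.

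All 5 tested genes of the small TIM chaperones had a log2 fold change below 0, with a median of −0.19, and 0 passed the test. With near-identical copies added, 4 of the 5 lay below 0, and again 0 passed the test. Of all tested genes with a coding sequence under 150 codons, 70.7% lay below 0. These proteins assemble into ring-shaped hexamers that hold hydrophobic precursors in the intermembrane space. Timm8b, partner of Timm13, stood at 375, 359 and 378 TPM in CerM, against 436, 444 and 393 TPM in vehicle. Every CerM library lay below every vehicle library (371 ± 10.1 and 425 ± 27.3 TPM, SD, n = 3 each). Its log2 fold change was −0.19 ± 0.08 (SE), with an unadjusted p of 0.0465 and a limma adjusted p of 0.989.

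Timm9 and Timm10 form the main hexamer together. Timm10 stood at 64.7, 74.2 and 77.4 TPM in CerM, against 84.3, 88.6 and 93.7 TPM in vehicle. Timm9 stood at 45.9, 45.7 and 47.7 TPM in CerM, against 64.0, 58.6 and 48.2 TPM in vehicle. Both sets were separate, but for Timm9 vehicle replicate 3 lay just above the highest CerM library. The log2 fold changes were −0.30 ± 0.10 (SE) for Timm10 and −0.28 ± 0.12 for Timm9. Limma's unadjusted p was 0.0187 for Timm10 and 0.05001 for Timm9, and its adjusted p was 0.989 for both.

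The remaining small TIM genes overlapped between treatments. Timm13 had 77.4 ± 11.95 TPM in CerM libraries and 86.6 ± 5.33 in vehicle libraries (SD, n = 3 each), a log2 fold change of −0.17 ± 0.13. Timm8a1, whose human counterpart is mutated in deafness-dystonia syndrome, had 13.6 ± 2.76 TPM in CerM libraries and 15.2 ± 2.18 in vehicle libraries (−0.16 ± 0.17). Timm8b exceeded Timm8a1 by 22.8, 32.9 and 28.2 times in CerM libraries and by 28.4, 25.8 and 30.5 times in vehicle libraries, with overlapping ratios. Without vehicle replicate 1 and CerM replicate 3 together, 4 of the 5 small TIM genes lay below 0, and Timm13 was at 0.01.

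**Figure D2:**
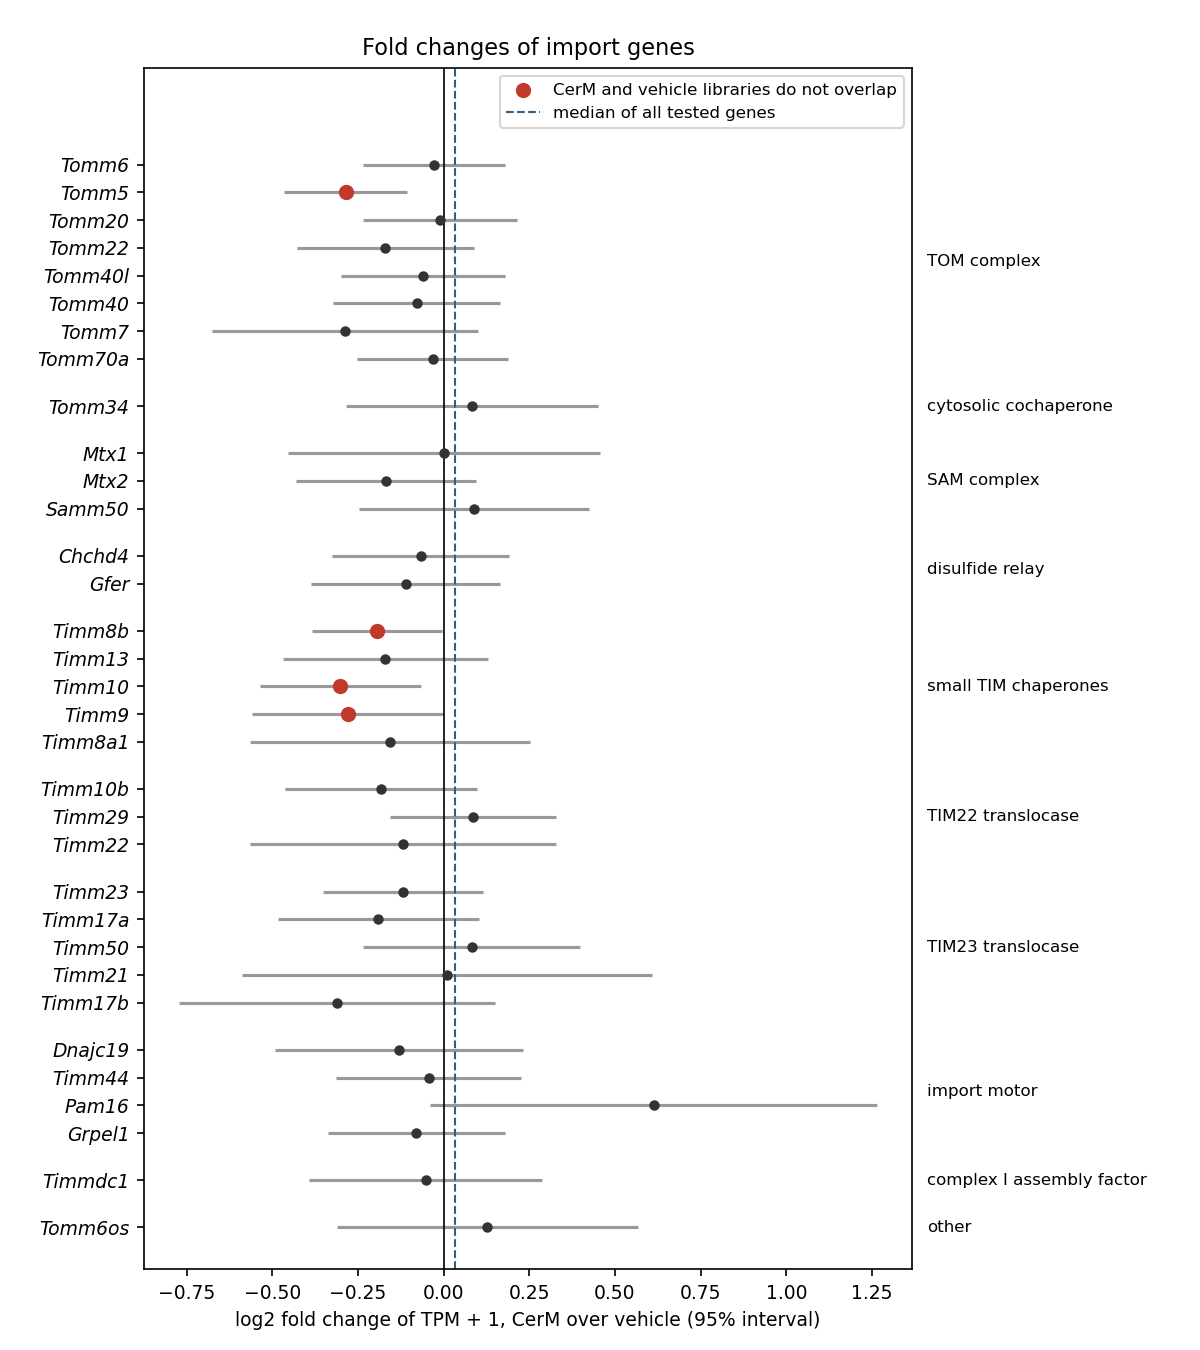
Log2 fold change of TPM + 1, CerM over vehicle, with its 95% confidence interval for each tested import gene by role. Red marks the 4 genes whose libraries did not overlap, Tomm5, Timm8b, Timm10 and Timm9. The dashed line is the median of all tested genes, 0.03.

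The promoters of these 4 genes, and of Pam16, which had the highest fold change, are shown. The genes were picked by these values, and no gene among them passed the test. Each runs from 250 bases before to 50 bases after the annotated start, in RefSeq's GRCm38.p6, 5′ to 3′ on the gene's strand. Capitals mark matches on either strand to cores of factors known for mitochondrial genes or growth: GCGCANGCG for NRF1, CCGGAAG for the ETS factor GABP, AAGATGGC for YY1 and CACGTG, the E-box. Overlapping matches run together. Timm10 is at chr2:84826771-84827070 on the plus strand, Timm8b at chr9:50603651-50603950 plus, Timm9 at chr12:71136626-71136925 minus, Tomm5 at chr4:45108064-45108363 minus and Pam16 at chr16:4624897-4625196 minus.
Tomm5: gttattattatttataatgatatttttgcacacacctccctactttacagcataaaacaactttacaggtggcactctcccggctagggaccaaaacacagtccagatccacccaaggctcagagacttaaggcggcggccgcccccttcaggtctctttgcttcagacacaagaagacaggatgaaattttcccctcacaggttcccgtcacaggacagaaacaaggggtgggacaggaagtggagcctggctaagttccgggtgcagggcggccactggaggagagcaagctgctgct
Timm8b: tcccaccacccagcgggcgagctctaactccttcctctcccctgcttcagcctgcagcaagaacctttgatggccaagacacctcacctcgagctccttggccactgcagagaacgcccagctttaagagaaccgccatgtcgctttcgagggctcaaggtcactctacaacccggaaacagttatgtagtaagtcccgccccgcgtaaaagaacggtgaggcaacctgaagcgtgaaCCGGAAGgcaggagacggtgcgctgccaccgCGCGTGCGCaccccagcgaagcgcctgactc
Timm9: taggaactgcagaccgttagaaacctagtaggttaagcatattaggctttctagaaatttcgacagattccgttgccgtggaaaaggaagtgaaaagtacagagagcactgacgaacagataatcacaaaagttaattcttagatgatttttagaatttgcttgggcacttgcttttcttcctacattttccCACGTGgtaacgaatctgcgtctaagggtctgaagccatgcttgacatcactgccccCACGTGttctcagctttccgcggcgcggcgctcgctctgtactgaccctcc
Timm10: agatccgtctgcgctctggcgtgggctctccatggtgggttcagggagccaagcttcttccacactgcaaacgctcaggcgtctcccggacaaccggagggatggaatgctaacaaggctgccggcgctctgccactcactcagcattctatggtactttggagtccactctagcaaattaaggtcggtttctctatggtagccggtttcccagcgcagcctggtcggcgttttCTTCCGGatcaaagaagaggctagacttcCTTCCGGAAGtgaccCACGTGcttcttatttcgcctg
Pam16: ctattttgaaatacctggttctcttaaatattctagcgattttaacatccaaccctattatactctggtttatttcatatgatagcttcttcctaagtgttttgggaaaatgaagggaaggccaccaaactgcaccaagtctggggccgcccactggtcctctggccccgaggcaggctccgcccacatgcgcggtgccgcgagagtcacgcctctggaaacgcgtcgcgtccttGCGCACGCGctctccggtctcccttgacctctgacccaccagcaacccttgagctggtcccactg

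The promoters of the 4 genes had no core in common. Timm10 held 3 ETS matches, of which those starting at positions 14 and 17 overlap on opposite strands, and an E-box at position 29 from the start. Timm8b held an ETS match at position −12 and an NRF1 match at 20. Timm9 held E-boxes at −58 and −1, which read alike on both strands. Tomm5 held none of the 4 cores in this window, and Pam16 held an NRF1 match at −15. Promoters were found for 30 of the 33 tested genes. Of these 30, 12 held the ETS core, against 9.93% of all 27025 genes with a promoter, 5 the NRF1 core (7.03%), 2 the YY1 core (3.19%) and 5 the E-box (8.09%). These shares describe letters in a window and were not compared at equal base composition. The 30 import genes had a mean of at least 1 TPM, while the 27025 genes were not chosen by level.

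The TIM22 translocase and the SAM complex showed no common direction, with 2 of 3 and 1 of 3 genes below 0 (2 of 3 SAM genes under median-ratio scaling). Timm10b, which docks the small TIM hexamer on TIM22, had 54.1, 41.8 and 44.0 TPM in CerM, against 52.2, 50.2 and 56.1 TPM in vehicle. Its groups overlapped through CerM replicate 1 (−0.18 ± 0.12). Gm45799, a gene on the same strand, shares 368 exon bases with Timm10b. It was at 11.0, 26.2 and 9.10 TPM in CerM, against 24.2, 23.0 and 28.4 TPM in vehicle, and how reads were shared between both is unknown. Timm22, the channel, had 33.0, 24.3 and 37.8 TPM in CerM, against 41.4, 31.9 and 29.6 TPM in vehicle (−0.12 ± 0.19). Timm29, a subunit known from human cells, had 0.09 ± 0.10.

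Samm50, the barrel of the SAM complex, stood at 49.2, 57.2 and 46.0 TPM in CerM, against 56.7, 45.6 and 41.3 TPM in vehicle (0.09 ± 0.14). Its metaxin partner Mtx1 stood at 68.9, 112 and 75.4 TPM in CerM, against 78.0, 75.4 and 98.6 TPM in vehicle, with a fold change of 0.00 ± 0.19. The highest of the 6 libraries was CerM replicate 2. Mtx2 stood at 46.2, 44.6 and 49.7 TPM in CerM, against 57.7, 55.1 and 46.1 TPM in vehicle (−0.17 ± 0.11), overlapping through vehicle replicate 3. The ratio of Mtx1 to Mtx2 was 1.84 ± 0.58 in CerM libraries and 1.62 ± 0.45 in vehicle libraries (SD, n = 3 each).

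Both genes of the disulfide relay had small fold changes below 0. Chchd4, the oxidoreductase that traps incoming proteins, had 15.5, 14.9 and 14.6 TPM in CerM, against 17.1, 15.6 and 14.6 TPM in vehicle (−0.07 ± 0.11). Gfer, the sulfhydryl oxidase that recharges it, had 11.7 ± 1.18 TPM in CerM libraries and 12.7 ± 0.24 in vehicle libraries (−0.11 ± 0.12). The genes of 12 proteins with twin CX9C motifs, a class that this relay folds, lay below 0 in 12 of 12 cases with a median of −0.16, and 0 passed the test. Of all tested genes 41.2% lay below 0, and of those with a coding sequence under 150 codons 70.7% did. The coding lengths of these 12 genes were not examined. Chchd3, a scaffold of cristae, had 92.5 ± 8.18 TPM in CerM libraries and 105 ± 4.50 in vehicle libraries (SD, n = 3 each), and had the smallest unadjusted p of that list, 0.0857. The list ran from Coa6 at −0.26 ± 0.31 to Cmc2 at −0.05 ± 0.23.

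In the TIM23 translocase 3 of 5 genes lay below 0 (4 under quantile normalization or median-ratio scaling), and the channel paralogs Timm17a and Timm17b both lay below 0. Timm17a stood at 104, 86.0 and 85.7 TPM in CerM, against 118, 105 and 92.3 TPM in vehicle (−0.19 ± 0.13). Timm17b, an X-linked gene at far lower level, stood at 8.93, 13.1 and 9.90 TPM in CerM, against 15.7, 14.4 and 10.4 TPM in vehicle (−0.31 ± 0.20). In both genes the groups overlapped, and vehicle replicate 3 was the lowest vehicle library. Timm17a exceeded Timm17b by 8.95 ± 2.55 times in CerM libraries and 7.90 ± 0.89 times in vehicle libraries (SD, n = 3 each), so the balance of the paralogs differed by less than its spread. Timm50, the presequence receptor of the inner membrane, had 0.08 ± 0.14, and Timm21, which links TIM23 to TOM, had 0.01 ± 0.26 with vehicle replicate 3 the lowest library at 8.02 TPM. Timmdc1, a relative of these proteins that assembles complex I, had 17.7, 22.9 and 16.1 TPM in CerM, against 18.5, 19.3 and 20.5 TPM in vehicle.

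Timm23, also of the TIM23 translocase, stood at 119, 107 and 104 TPM in CerM, against 112, 116 and 131 TPM in vehicle. Its groups overlapped (−0.12 ± 0.10). Its transcript has 4 near-identical copies elsewhere in the genome, at 98% identity or more over at least 40% of its length: Gm10233, Gm10171, Gm16209 and Gm10273. The table splits TPM among them unevenly, with Gm10171 at 0.03, 0.00 and 11.6 TPM in CerM and 1.90, 45.7 and 6.85 TPM in vehicle, and Gm10233 at 9.78, 31.8 and 11.6 TPM in CerM and 40.9, 0.08 and 6.85 TPM in vehicle. Gm10233 and Gm10171 match Timm23 at 100% identity over 628 bases. Summed over the gene and its copies, the level was 130, 141 and 128 TPM in CerM, against 155, 162 and 145 TPM in vehicle, and the groups no longer overlapped. The log2 fold change of the sum was −0.21 ± 0.09 (SE), with a limma adjusted p of 0.990.

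Of the 4 import motor genes 3 lay below 0. The fourth, Pam16, had the largest fold change of all import genes, and its direction depended on a copy. Pam16, which restrains the motor's J protein, stood at 36.3, 28.2 and 33.3 TPM in CerM, against 28.3, 25.2 and 12.6 TPM in vehicle. CerM replicate 2 lay just below vehicle replicate 1, so the groups overlapped, and vehicle replicate 3 was far below the rest. The log2 fold change was 0.61 with a 95% confidence interval of −0.04 to 1.26, and without vehicle replicate 3 it was 0.27.

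Gm9803, annotated as protein coding, is identical to the Pam16 transcript over 534 of its 596 bases. It stood at 34.2, 27.1 and 25.7 TPM in CerM, against 39.3, 56.7 and 72.2 TPM in vehicle, so it was highest in vehicle replicate 3, where Pam16 was lowest. Summed, both rows gave 70.5, 55.3 and 58.9 TPM in CerM, against 67.6, 81.9 and 84.8 TPM in vehicle. The direction of the sum was thus the reverse of the Pam16 row, with a log2 fold change of −0.34 ± 0.13 (SE) and a limma adjusted p of 0.990. The 2 sets of sums overlapped through CerM replicate 1. How the authors' tools divided reads between identical sequences is not given in the sources used here.

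**Figure D3:**
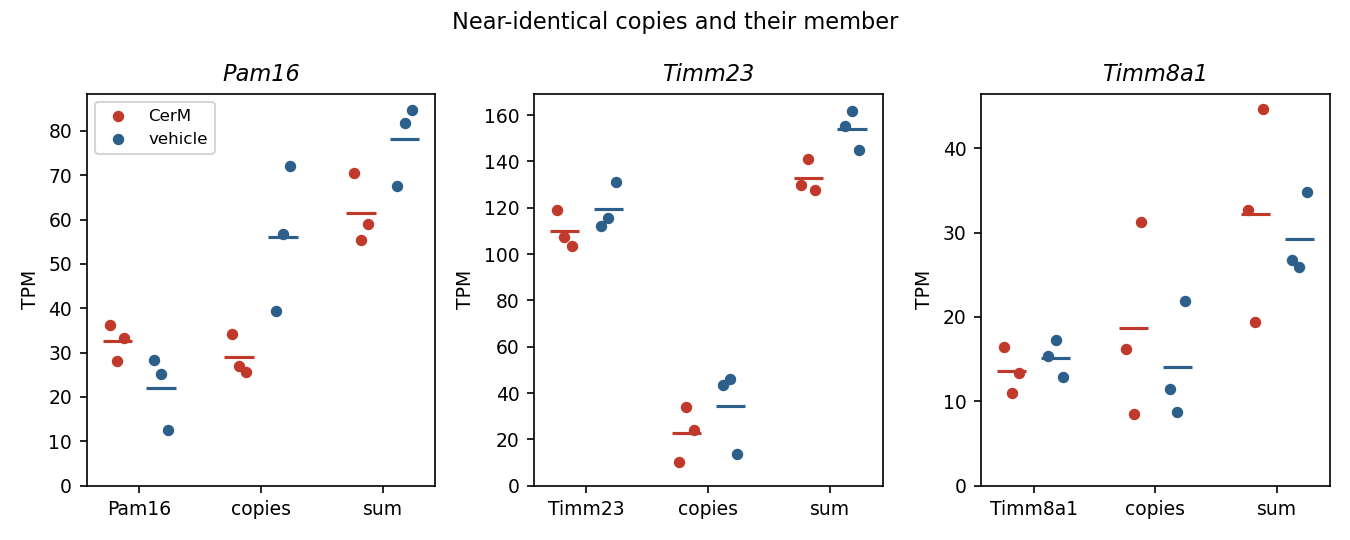
TPM in each library for Pam16, Timm23 and Timm8a1 (left in each panel), for their near-identical copies (middle) and for the sum (right), CerM left of vehicle, with bars at the means. For Pam16 the CerM mean of 32.6 TPM lies above the vehicle mean of 22.02, while for the sum it lies below, at 61.6 against 78.1 TPM.

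For Timm8a1 the copy turned the direction the other way. Gm9797, a transcribed pseudogene that matches it at 100% over 612 bases, stood at 16.2, 8.53 and 31.3 TPM in CerM, against 11.4, 8.73 and 21.95 TPM in vehicle. The sum was 32.3 ± 12.6 TPM in CerM libraries and 29.2 ± 4.91 in vehicle libraries (SD, n = 3 each), a difference smaller than its spread. With the copies added for these 3 genes, 25 of the 33 import genes still lay below 0, 5 did not overlap between treatments, and 6 had an unadjusted p below 0.05, all lower in CerM. Of all tested genes in that fit 7.3% did not overlap, and 405 of 14912 had such a p. No other tested import gene had a copy of that likeness outside its own locus. Shorter matches were not summed. Gfer, for example, matched Dst at 99.83% over 573 of 1776 bases, and Dst stood at 49.6 to 64.3 TPM.

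The other motor genes had small fold changes. Dnajc19, the J protein that stirs the motor's Hsp70, stood at 46.4, 30.8 and 33.4 TPM in CerM, against 40.6, 40.4 and 38.4 TPM in vehicle (−0.13 ± 0.16). CerM replicate 1 was the highest library and the other CerM libraries were the lowest. Timm44, which anchors that Hsp70 at the channel, had −0.04 ± 0.12, and its exchange factor Grpel1 had −0.08 ± 0.11. Grpel1 shares 411 exon bases with Tada2b on the other strand, at 16.1 to 22.7 TPM. Of 19 other genes of the pathway, such as the Hsp70 gene Hspa9 at −0.02 ± 0.09, 10 lay below 0 with a median of −0.01, and 0 passed the test. They ran from Romo1 at −0.14 ± 0.16 to Immp2l, a subunit of the inner membrane peptidase, at 0.50 ± 0.20. Immp2l also had the smallest unadjusted p of that list, 0.0409, at 16.5 ± 2.78 TPM in CerM and 11.5 ± 2.99 in vehicle.

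Across libraries the import genes did not part the treatments cleanly. The mean deviation from each gene's average, on the log2 scale, was −0.04, 0.01 and −0.08 in CerM replicates 1 to 3, against 0.10, 0.06 and −0.05 in vehicle replicates 1 to 3. Vehicle replicate 3 lay below CerM replicates 1 and 2. Vehicle replicate 1 was the highest of the 6 libraries in 11 of the 33 genes, CerM replicate 2 in 9, and CerM replicate 3 in 0. CerM replicate 3 was the lowest in 9.

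The 3 libraries high in choroid plexus markers, CerM replicates 1 and 3 and vehicle replicate 3, had the 3 lowest mean deviations, and the 3 libraries low in those markers had the 3 highest. The highest library, vehicle replicate 1, also stood apart in neocortex markers, and the lowest, CerM replicate 3, in fat markers. Without vehicle replicate 1 and CerM replicate 3, 19 of the 33 import genes lay below 0, where 43.4% of all tested genes did, and the median was −0.05, against 0.02 over all genes. With the neocortex marker score as a covariate 26 lay below 0 (median −0.07), where 46.2% of all tested genes did (0.01). With the choroid plexus score 24 did (−0.06), where 40.2% of all tested genes did (0.04). The neocortex score was 0.68 in vehicle replicate 1 and −0.23 to −0.07 elsewhere, so that covariate mainly set this library apart. The part of these tissues in the difference was not tested further.

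**Figure D4:**
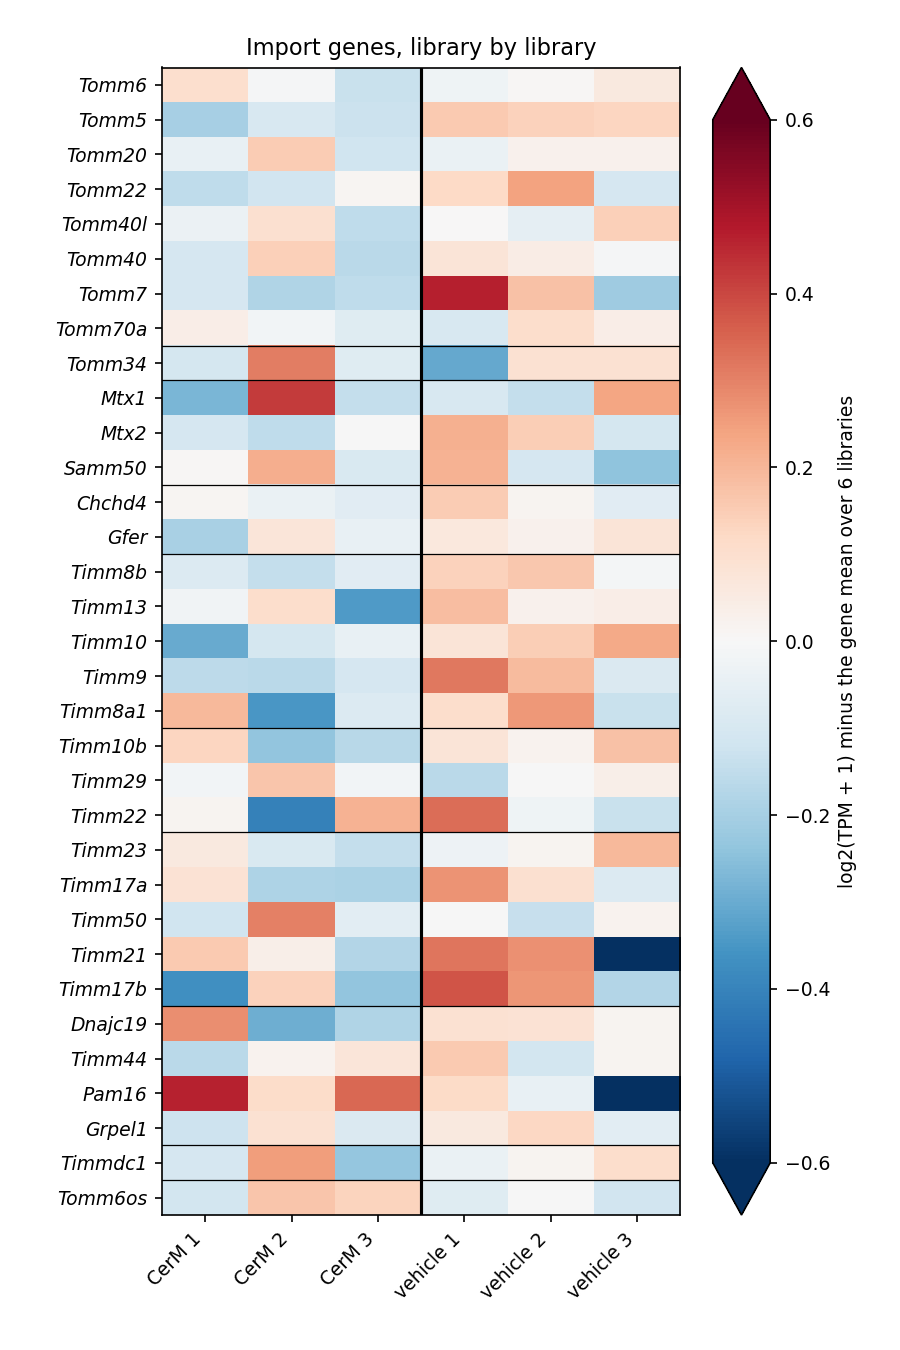
Deviation of log2(TPM + 1) from the gene's mean over the 6 libraries, for 33 import genes in rows by role and 6 libraries in columns, CerM left of vehicle. Tomm5 and Timm10 are below their mean in every CerM library and above it in every vehicle library, while Tomm7, Timm21 and Timm17b are below their mean in vehicle replicate 3 and above it in the other vehicle libraries.

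Fold changes of import genes went with the length of their coding sequence, and so did those of all genes. Coding length was taken as the longest annotated coding sequence in an older annotation (GENCODE M21). Of 13 import genes under 150 codons, 12 lay below 0, with a median of −0.17, where 70.7% of all 927 tested genes of that length did, with a median of −0.09. Of 11 import genes from 150 to under 300 codons, 9 lay below 0 (median −0.12), where 56.4% of all such genes did (−0.02). Of 7 import genes from 300 to under 600 codons, 3 did (0.00), where 40.2% of all such genes did (0.03). Tomm70a, at 611 codons, was the only longer one (−0.03), in a class where 25.4% lay below 0.

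Spearman's rho between fold change and coding length was 0.62 over 32 import genes and 0.30 over 13396 tested genes, given as a description because genes share libraries. The median deviation of 914 other genes under 150 codons was −0.03, −0.03 and −0.08 in CerM replicates 1 to 3, against 0.07, 0.06 and 0.02 in vehicle replicates 1 to 3. The 4712 other genes of 600 codons or more had −0.07, 0.20 and −0.01 in CerM, against −0.13, −0.04 and 0.05 in vehicle. The short genes thus lay below these long genes in CerM replicates 2 and 3 and above them in vehicle replicates 1 and 2, but above them in CerM replicate 1 and below them in vehicle replicate 3. The 13 short import genes had −0.05, −0.11 and −0.10 in CerM, against 0.12, 0.14 and −0.01 in vehicle. The 19 import genes of 150 codons or more had −0.10, 0.09 and −0.09 in CerM, against 0.06, 0.03 and 0.02 in vehicle. The part of length in the difference was not tested.

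**Figure D5:**
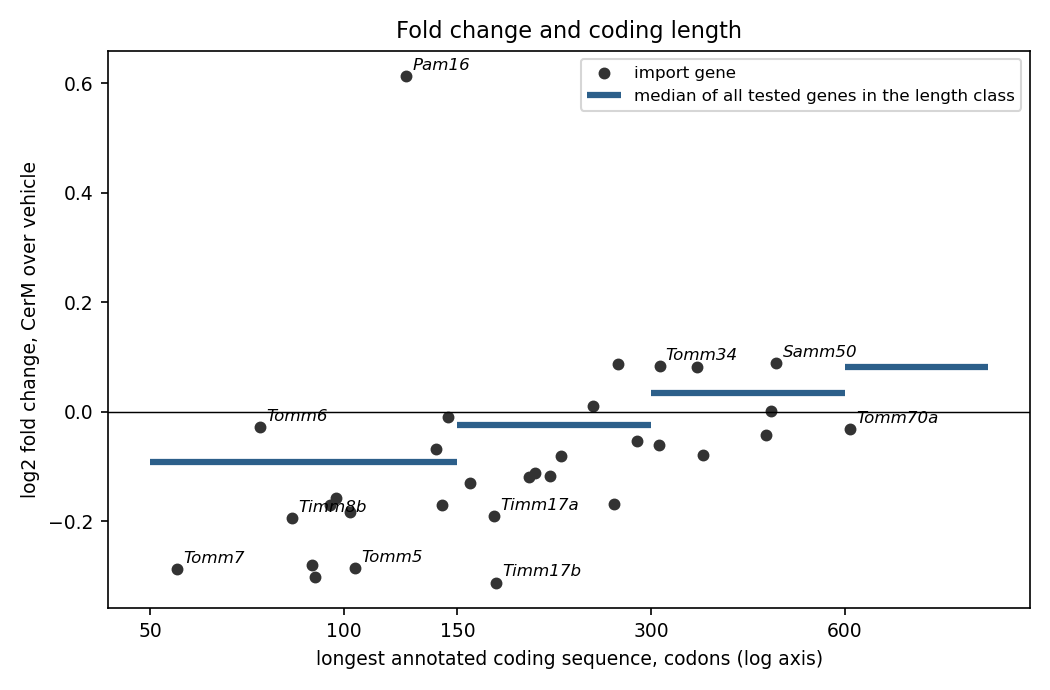
Log2 fold change, CerM over vehicle, against the longest annotated coding sequence in codons (log axis) for 32 import genes, with blue bars at the median of all tested genes in 4 length classes (the first class starts below the axis and the last has no upper end). The blue bars climb from −0.09 to 0.08, and the short import genes other than Pam16 and Tomm6 lie mostly below the first bar.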

How the data were processed

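Hippocampal RNA was isolated with TRIzol, cleared of DNA and prepared with a TruSeq RNA kit, per the labels' protocols. Per the submitters' processing notes, which give neither roles nor versions, the tools were HISAT2, RSEM and StringTie and the build was GRCm39. A strand setting is not given in the sources used here. The authors deposited TPM values with a column for each of the 6 libraries. TPM keeps no depth, so the reads behind a value are unknown and no counting interval is given.

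Genes with a mean of at least 1 TPM were tested on log2(TPM + 1) by limma 3.58.1 (R 4.3.3), two-sided, letting the prior variance follow mean level, with Benjamini-Hochberg adjustment over all 14916 genes. Alternatives changed the pseudocount, TPM minimum, scaling, variance model, weights, block and libraries. Covariates for marker scores and the sums over copies were chosen after seeing the data. The test was checked on simulated data. Import genes, roles and marker lists were chosen with earlier results of these data known. Named genes follow a rule by role: the most abundant, the largest fold changes, and those without overlap are given in every library. Copies were sought with blastn 2.17.0 in GENCODE M21 transcripts at 95% identity or more over at least 200 bases, and those outside the member's locus at 98% or more over at least 40% of the transcript were summed. Lengths and neighbours come from the same annotation, whose build is older than the authors', so it gave no coordinates. Promoters come from RefSeq. Plots used Python 3.11.15 and matplotlib 3.10.9.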

Additional observations from a re-analysis of the deposited data

How the results depend on the processing

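Of 33 import genes, 15 kept their direction under all 20 alternatives, among them Tomm5, Timm10, Timm8b and Timm9, as did Tomm6os under the 19 that tested it, and 0 import genes were called under any of them. Some alternatives could not have changed a direction. The replicate block, the fit without a variance trend and the other TPM minimums leave every fold change as it was. The import gene median stayed below 0. With each library left out in turn it ran from −0.12 to −0.06, against −0.02 to 0.07 over all tested genes. In these fits 21 to 28 import genes lay below 0, where 36.3% to 55.7% of all tested genes did. The count of 28 and the share of 55.7% both came without CerM replicate 2. Between treatments 4 to 12 import genes did not overlap, where 12.6% to 23.8% of all tested genes did not. Of all tested genes 0 to 7 were called. Without vehicle replicate 1 and CerM replicate 3 together 7 import genes did not overlap, where 21.2% of all tested genes did not, and 1 gene of all tested was called. Fewer libraries make separate groups easier by construction.

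Genes near 0 changed sign. With each library left out in turn, log2 fold changes ran from −0.208 to 0.138 for Mtx1, −0.008 to 0.216 for Samm50, −0.293 to 0.173 for Timm21, −0.253 to 0.055 for Timm22, −0.109 to 0.027 for Timm44, −0.05 to 0.161 for Timm50, −0.192 to 0.049 for Timmdc1, −0.088 to 0.048 for Tomm20, −0.051 to 0.158 for Tomm34, −0.125 to 0 for Tomm40l, −0.084 to 0.033 for Tomm6 and −0.089 to 0.012 for Tomm70a. Without vehicle replicate 1 and CerM replicate 3 together, Timmdc1 was at 0.015, Tomm40 at 0.002, Timm13 at 0.007, Tomm6 at 0.014, Chchd4 at 0.01 and Tomm20 at 0.025. Sample weights gave 0.09 for Timm44, −0.11 for Tomm34, 0.114 for Timm22, −0.27 for Timm21 and −0.014 for Mtx1. Quantile normalization gave −0.04 for Timm21, 0.016 for Tomm6 and 0.027 for Tomm20, and median-ratio scaling −0.017 for Timm21 and −0.028 for Mtx1. TPM without genes of mitochondrial DNA gave 0.004 for Tomm20. The neocortex covariate gave 0.009 for Timm44, −0.026 for Tomm34 and −0.027 for Mtx1, and the choroid plexus covariate 0.016 for Tomm20. Adding near-identical copies gave −0.339 for Pam16 and 0.076 for Timm8a1. The cause of these changes of sign was not tested. Sample weights gave 2696 genes and 12 import genes at an unadjusted p below 0.05, against 402 and 3 with equal weights.

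With the replicate number as a block, 0 genes were called, while 496 genes had an unadjusted limma p below 0.05. In this balanced design a block cannot move a fold change. The 25 import genes below 0 and the median of −0.08 were therefore those of the main fit. Deviations of same-numbered libraries correlated at 0.01, 0.20 and 0.22, and vehicle replicate 1 correlated best with CerM replicate 2, so the numbers were not taken to pair the libraries. Depth is unknown, and 3 libraries in each group limit the precision.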

Other observations

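Several import genes share a start region, head to head, with a gene of another function. Sdhd, a complex II gene that starts beside Timm8b, stood at 129, 139 and 145 TPM in CerM and 144, 135 and 153 TPM in vehicle, with a log2 fold change of −0.07 where Timm8b had −0.19. Pqbp1, beside Timm17b, had −0.04 where Timm17b had −0.31. Parg, beside Timm23, had −0.07 where Timm23 had −0.12. Arfip2 and Stk4 lay near their import gene, with −0.14 beside Timm10b at −0.18 and 0.13 beside Tomm34 at 0.08. Yipf2 had −0.04 beside Timm29 at 0.09, and 2700049A03Rik −0.01 beside Timm9 at −0.28. Tmem43 had 0.07 beside Chchd4 at −0.07, and Noxo1 0.07 beside Gfer at −0.11. Frs3 had 0.49 beside Tomm6 at −0.03, and the noncoding 2210406O10Rik 0.36 beside Grpel1 at −0.08. Frs3 stood at 12.05, 23.5 and 10.35 TPM in CerM, against 11.11, 9.23 and 9.53 TPM in vehicle. Its groups overlapped, and CerM replicate 2 lay far above the rest. The difference between such neighbours was not tested.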
